A study of Mus musculus with 4 samples.

Results

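The genes described here are 10 transcription factors that set the dendritic and the myeloid fate of blood cells, chosen by name. Of these, 9 were measured on the array, by 22 of the 34958 probe sets that carry 1 gene symbol, and are 9 of the 18194 genes measured in all. Cebpe was not analysed here. A gene's value is that of its brightest probe set on average across the arrays. The further probe sets are given beside it for the members, and for some of the related genes.

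The measurements are Affymetrix arrays of C57BL/6 mouse bone marrow cells, kept 7 days in GM-CSF and IL-4 (10 ng/ml of each), selected for CD11c to a stated purity of 95%, and then kept for 12 hours with diluent (control, 2 arrays) or with SAHA (2 arrays). SAHA (vorinostat) inhibits histone deacetylases, and the labels give its dose as 500 nm, which is a unit of length, so the intended concentration unit (nM may be meant) is not settled. Each experiment used marrow of 3 mice or more. The sample titles name the arrays biological replicates, but nothing states that both arrays of a group stem from separate marrow, so a p-value covers only the spread among these 4 arrays. Values are the deposited log2 values per probe set. Arrays have no read depth, and their small number sets the precision. Because cells were measured in bulk, a change in the share of a cell type and a change in RNA per cell cannot be told apart.

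The lineage factors work as a network. PU.1, encoded by Spi1, is an ETS-family factor that myeloid and dendritic cells both need, and C/EBP proteins are leucine-zipper factors that open the granulocyte and monocyte programmes. On the dendritic side, ZBTB46 marks conventional dendritic cells, NFIL3 and BCL6 are required for some of their subsets, and ID2 is a helix-loop-helix protein without a DNA-binding region that captures E proteins. TCF4 (E2-2) is such an E protein and directs the plasmacytoid dendritic cell fate, which ID2 opposes.

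No member passed the test for a change with SAHA, and the larger differences were those of Tcf4 and Bcl6. Tcf4 was 1.89-fold higher with SAHA and Bcl6 1.52-fold higher, and for both genes each SAHA array lay above each control array. Spi1, Id2, Zbtb46, Nfil3, Cebpa, Cebpb and Cebpd had log2 changes between -0.34 and 0.14, and their groups overlapped. In the test over all genes (limma, Benjamini-Hochberg adjusted p under 0.05) 0 of 9 members passed, against 2.23% of the 18194 genes. At an unadjusted p under 0.05 there were 2 of 9, Tcf4 and Bcl6, against 18.1% of all genes. Both SAHA arrays lay above both control arrays for 2 of 9 members, against 21.1% of all genes, and below them for 0 of 9, against 29.6%. These shares are near the background or below it.

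**Figure D1:**
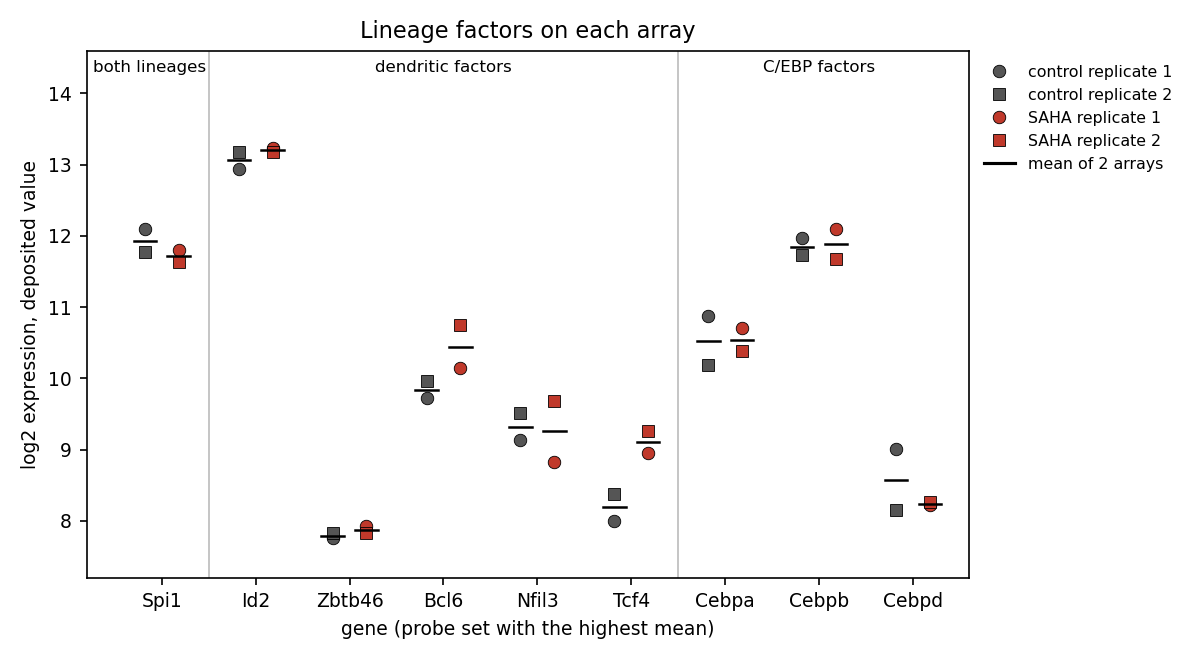
Deposited log2 expression of the 9 measured lineage factors (horizontal axis) on each of the 4 arrays, grey for control and red for SAHA, with circles for replicate 1, squares for replicate 2 and a line at the mean of 2 arrays. For Tcf4 both SAHA arrays (8.95 and 9.27) sit above both control arrays (8.002 and 8.38), and for Bcl6 likewise, while the groups of the other 7 genes overlap.

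Upstream sequence is shown for 3 members to set the genes beside the recognition letters of the factors among them. These are Bcl6, the dendritic factor with the largest rise among those read, Id2, the partner of the E proteins, and Cebpb, a C/EBP factor. The RefSeq promoter table (GRCm38.p6) was read for 6 of the 10 members, and no window was read for Spi1, Tcf4, Cebpd and Cebpe. Each window is the 250 bases before the annotated start, on the strand of the gene, at chr16:23988853-23989102 (minus strand) for Bcl6, chr12:25096093-25096342 (minus strand) for Id2 and chr2:167688665-167688914 (plus strand) for Cebpb. Capitals mark letters found on either strand: GAGGAA, the core bound by PU.1, GCAAT, an arm of the C/EBP palindrome, and CANNTG. The last is the general E-box pattern, not only the forms that E proteins prefer.
Bcl6: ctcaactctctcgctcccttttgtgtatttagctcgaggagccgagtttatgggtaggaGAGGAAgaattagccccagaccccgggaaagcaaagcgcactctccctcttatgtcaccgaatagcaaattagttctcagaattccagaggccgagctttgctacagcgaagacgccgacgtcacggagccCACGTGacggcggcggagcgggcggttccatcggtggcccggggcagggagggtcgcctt
Id2: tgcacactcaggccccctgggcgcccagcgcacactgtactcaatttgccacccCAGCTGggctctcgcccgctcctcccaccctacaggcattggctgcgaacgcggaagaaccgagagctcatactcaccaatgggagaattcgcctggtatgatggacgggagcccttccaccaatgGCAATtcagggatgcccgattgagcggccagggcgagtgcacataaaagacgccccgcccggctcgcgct
Cebpb: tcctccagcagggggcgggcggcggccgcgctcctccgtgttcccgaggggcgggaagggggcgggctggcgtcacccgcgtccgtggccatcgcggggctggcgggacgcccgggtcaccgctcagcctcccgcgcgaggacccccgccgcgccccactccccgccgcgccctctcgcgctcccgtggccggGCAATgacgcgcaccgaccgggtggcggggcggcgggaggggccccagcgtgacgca
The Bcl6 window held GAGGAA 191 bases before the start and an E-box 60 bases before it. The Id2 window held an E-box 196 bases and GCAAT 70 bases before the start, and the Cebpb window held GCAAT 57 bases before it. No matches overlapped. Of the 32851 windows of this length in the table, 23.3% held GAGGAA, 23.1% held GCAAT and 66.2% held CANNTG, so each match is common. A second Bcl6 start and the Cebpa window held none of these letters, the Nfil3 window held 1 E-box, and the Zbtb46 window held 5 E-boxes. These matches describe the letters alone, and no binding or acetylation was measured in these samples.

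Spi1, the factor of both lineages, had values of 12.09 and 11.78 in control and 11.80 and 11.63 in SAHA-treated cells. SAHA replicate 1 lay just above control replicate 2, so the groups overlapped. The log2 change was -0.22 ± 0.15 (SE, n = 2 per group, limma, adjusted p = 0.487), with a 95% interval of -0.57 to 0.14. Spi1 had 1 probe set. Of 13 genes known as PU.1 targets in myeloid cells 12 were measured. At an unadjusted p under 0.05 (limma) there were 3 of 12, against 18.1% of all genes. After adjustment 0 of these targets passed in either direction, against 2.23% of all genes. Their median log2 change was -0.12, against -0.05 over all genes. Csf3r, the G-CSF receptor, went from 8.004 and 8.45 in control to 6.80 and 7.82 with SAHA (-0.92 ± 0.34, SE, adjusted p = 0.237). Csf3r is also among the granule and C/EBP target genes and the neutrophil markers counted below. Csf2ra, the alpha chain of the GM-CSF receptor on which this culture depends, went from 13.03 and 12.56 to 12.09 and 11.75 (-0.87 ± 0.19, adjusted p = 0.0830). With 1 array left out the change of Csf2ra ran from -1.11 to -0.63, and its second probe set gave -0.17.

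Tcf4 read 8.002 and 8.38 in control and 8.95 and 9.27 in SAHA-treated cells on the probe set 1416723_at. The gap between the groups, from 8.38 to 8.95, was wider than the range within either group (0.38 and 0.32). The log2 change was 0.92 ± 0.20 (SE, n = 2 per group), with a 95% interval of 0.44 to 1.39, and it did not pass (limma, adjusted p = 0.0759). Ranked from the largest rise, Tcf4 was 361 of 18194 genes. Tcf4 had 6 probe sets, and 5 of them were higher in both SAHA arrays than in both controls, with log2 changes of 0.71 to 1.12. The largest was on 1434148_at, which read 6.82 and 7.34 in control and 8.09 and 8.31 with SAHA (1.12 ± 0.22, adjusted p = 0.0739 over all probe sets). The sixth, 1416725_at, read 4.04 and 3.995 in control and 3.96 and 4.15 with SAHA, at about the 25th percentile of the arrays, and gave 0.04. Over the 22 probe sets of the members, 9 were higher without overlap, against 21.2% of all probe sets, and 0 were lower without overlap, against 27.6%. None of the 22 passed in limma, against 1.11% of all 34958. Of these 9, Tcf4 gave 5 and Bcl6 2. The probe sets of a gene share the gene and the arrays, and they are not separate replicates, and 1416724_x_at belongs to a design class that may cross-hybridise.

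Id2, the antagonist of E proteins, had values of 12.94 and 13.18 in control and 13.23 and 13.18 in SAHA-treated cells. SAHA replicate 2 and control replicate 2 were level, and the groups overlapped. The log2 change was 0.14 ± 0.12 (SE, limma, adjusted p = 0.570), with a 95% interval of -0.14 to 0.43. A second probe set gave 0.12. The third, 1453596_at, read 10.10 and 10.30 in control and 10.77 and 10.53 with SAHA, with no overlap, and gave 0.45 ± 0.16 (adjusted p = 0.232 over all probe sets). The probe sets of Id2 thus differed in size but all 3 lay above 0.

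The list around Tcf4 and Id2 holds helix-loop-helix genes and also Lmo2 and Hhex. In it 1 of 9 measured genes rose and none fell (limma, adjusted p under 0.05 over all genes), and the list median was -0.07. Of all genes 1.52% rose and 0.709% fell. At an unadjusted p under 0.05 there were 2 of 9, against 18.1% of all genes. The riser was Lyl1, a helix-loop-helix factor of blood progenitors, which went from 6.28 and 6.41 in control to 9.36 and 9.33 with SAHA (log2 change 3.00 ± 0.15, SE, adjusted p = 0.00277). The other E protein genes were Tcf3 at -0.07 (adjusted p = 0.867) and Tcf12 at -0.36 (adjusted p = 0.444). As the mean of all probe sets of the gene, Tcf3 had -0.23 and Tcf12 -0.023. Among the ID genes, Id1 had 0.80 (adjusted p = 0.110), Id3 -0.15 (adjusted p = 0.588) and Id4 -0.10 (adjusted p = 0.814). These 5 were named after their values were seen.

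Markers of plasmacytoid dendritic cells, the type TCF4 specifies, were set beside its result. Of 8 measured markers 1 had an unadjusted p under 0.05 (limma), against 18.1% of all genes. After adjustment 0 of the 8 markers passed in either direction, against 2.23%, and their median was -0.10. Their summed level on the linear scale was 7237 to 8623 in control and 6740 to 7745 with SAHA. Bst2, which many cells express under interferon, made up 92.1% to 94.0% of that sum, at 12.70 and 12.99 in control and 12.60 and 12.82 with SAHA. The other 7 markers summed to 566 and 515 in control and 531 and 523 with SAHA, and these ranges overlapped. Siglech, a lectin that defines the type in mice, read 4.85 and 4.97 in control and 4.84 and 5.01 with SAHA, which is below the array medians of 5.34 to 5.35. B cells are another setting in which Tcf4 and Bcl6 are used. Over 6 of 7 genes the B cell markers had a summed level of 182 to 208 in control and 164 to 187 with SAHA. Of the 6, 0 passed in limma, against 2.23% of all genes, and 2 had an unadjusted p under 0.05, against 18.1%.

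Bcl6, a zinc-finger repressor, read 9.73 and 9.96 in control and 10.14 and 10.75 in SAHA-treated cells. The groups did not overlap, but the SAHA arrays were 0.61 apart, more than the 0.18 between the nearest arrays of the groups. The log2 change was 0.60 ± 0.22 (SE, limma, adjusted p = 0.229), with a 95% interval of 0.07 to 1.14. The second probe set, 1450381_a_at, read 8.25 and 8.31 against 8.67 and 9.05, also without overlap, and gave 0.58 ± 0.18 (adjusted p = 0.193 over all probe sets). Without SAHA replicate 2 the change was 0.30 and without SAHA replicate 1 it was 0.91, so its size rested on which SAHA array was kept.

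Of 11 partners and antagonists of BCL6 9 were measured, with a median of -0.08. In limma 0 of the 9 passed, against 2.23% of all genes, and 2 had an unadjusted p under 0.05, against 18.1%. Prdm1, which encodes BLIMP-1, a repressor that opposes BCL6 in lymphocytes, went from 7.82 and 7.97 in control to 7.26 and 7.53 with SAHA (-0.50 ± 0.17, adjusted p = 0.198). Bcor, a corepressor that binds BCL6, went from 7.91 and 7.86 to 8.31 and 8.32 (0.43 ± 0.14, adjusted p = 0.196). For both genes the groups did not overlap, and neither change passed. Without overlap, 21.1% of all genes lay higher and 29.6% lower with SAHA. Further probe sets of Bcor gave 0.62 and 0.44.

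Zbtb46 read 7.76 and 7.82 in control and 7.93 and 7.82 with SAHA, with overlap and a log2 change of 0.08 ± 0.15 (SE, limma, adjusted p = 0.802). The 95% interval was -0.27 to 0.44, and with quantile normalization the change was -0.0093. Of its 3 further probe sets, 1454884_at had no overlap, with 7.64 and 7.51 in control and 7.80 and 7.88 with SAHA (0.27, adjusted p = 0.458), and the others gave 0.09 and -0.09. Among markers of dendritic cells, the CD11c gene Itgax read 12.44 to 13.40 over the 4 arrays. The class II genes H2-Aa and H2-Ab1 read 13.60 to 14.45, and Cd74, the class II invariant chain gene, read 14.17 to 14.23. Flt3, a growth factor receptor of dendritic progenitors, read 6.72 to 7.48. Of the 7 markers besides Zbtb46 0 passed in limma, against 2.23% of all genes. Against 18.1% of all genes, 2 of the 7 were at an unadjusted p under 0.05. These were the chemokine receptor gene Ccr7, at 12.90 and 13.07 in control and 12.39 and 12.60 with SAHA (-0.49, adjusted p = 0.118), and the costimulatory gene Cd86, at 10.43 and 11.66 in control and 11.77 and 12.40 with SAHA (1.04, adjusted p = 0.248). Neither overlapped between the groups, while 21.1% of all genes lay higher and 29.6% lower with SAHA without overlap. The change of Cd86 was 0.42 without control replicate 1 and 1.65 without control replicate 2. It was 1.36 without SAHA replicate 1 and 0.72 without SAHA replicate 2. Macrophage markers were also high in this culture, with a summed level of 52195 to 58752 in control and 49099 to 57120 with SAHA.

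Nfil3, a basic leucine-zipper repressor, read 9.13 and 9.51 in control and 8.83 and 9.68 with SAHA, so both control arrays lay between the SAHA arrays. The log2 change was -0.06 ± 0.29 (SE, limma, adjusted p = 0.928), with a 95% interval of -0.77 to 0.64, which is too wide to exclude a change of the size seen for Bcl6. The range between its SAHA arrays, 0.85, was larger than that of 98.9% of all genes. Among 9 measured genes of the PAR zipper and clock set, 1 rose and none fell (limma, adjusted p under 0.05), against 1.52% and 0.709% of all genes, and the median was 0.31. At an unadjusted p under 0.05 there were 6 of 9, of which 4 were higher with SAHA, against 18.1% of all genes. Dbp, an activator that competes with NFIL3 for its sites, went from 5.04 and 4.94 in control to 5.80 and 5.92 with SAHA (0.87 ± 0.14, SE, adjusted p = 0.0405). Its suffix marks a design that other transcripts may match, and the second probe set for Dbp gave -0.0063. The call was lost over all probe sets (adjusted p = 0.0540) and without control replicate 2 (0.0751), SAHA replicate 1 (0.197) or SAHA replicate 2 (0.165).

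**Figure D2:**
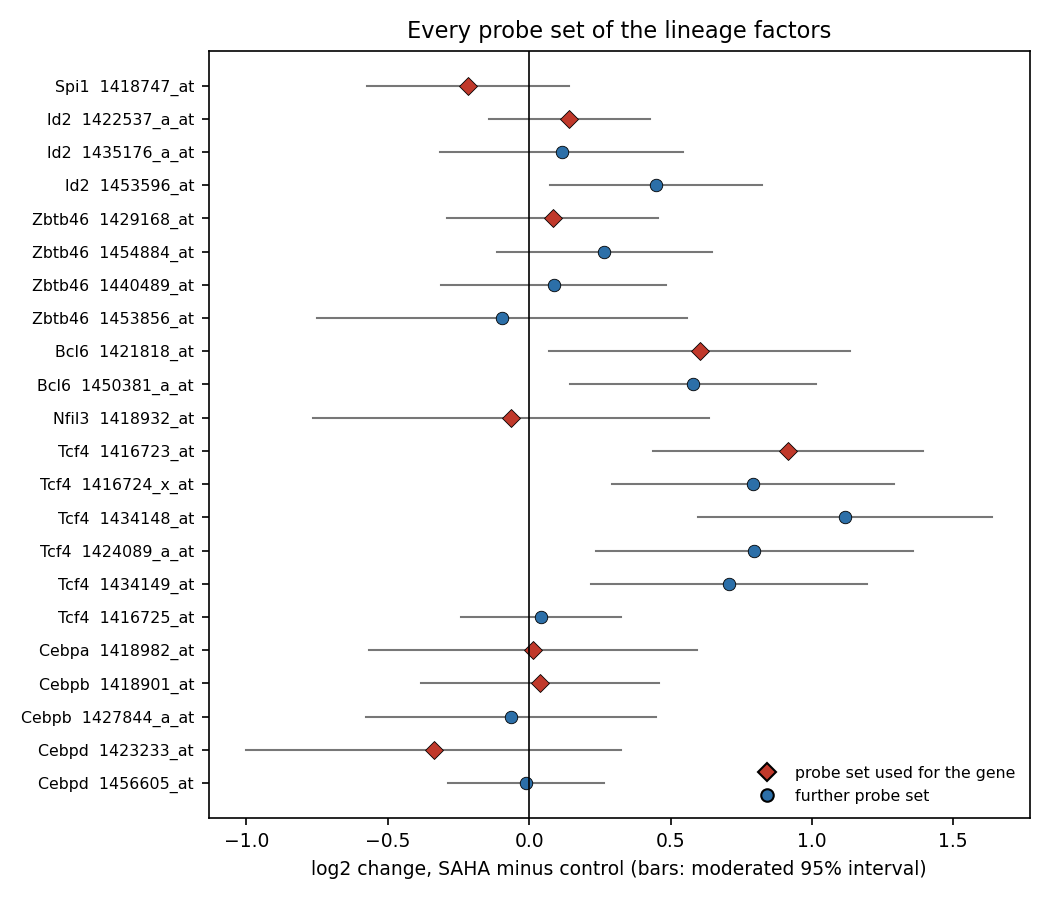
Log2 change (SAHA minus control, horizontal axis) of each of the 22 probe sets of the 9 measured factors, with moderated 95% intervals from limma over all probe sets. Diamonds are the probe sets used for the genes and circles the further ones. The intervals of 5 of 6 Tcf4 probe sets, both of Bcl6 and 1 of Id2 lie above 0, and none of the 22 passed the adjusted test, where the lowest adjusted p was 0.0739.

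The C/EBP factors showed no separation between the groups. Cebpa, the factor that commits progenitors to the myeloid fate, read 10.87 and 10.19 in control and 10.71 and 10.38 with SAHA. Both SAHA arrays lay between the control arrays, which were 0.68 apart, and the log2 change was 0.01 ± 0.24 (SE, limma, adjusted p = 0.982; 95% interval -0.57 to 0.60). Cebpb, which acts in macrophages and in emergency granulocyte production, read 11.97 and 11.73 in control and 12.10 and 11.67 with SAHA. Its SAHA arrays lay on either side of the control arrays, and the change was 0.04 ± 0.18 (adjusted p = 0.928; 95% interval -0.38 to 0.46), with -0.07 on the second probe set.

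Cebpd, an inflammation-responsive C/EBP factor, read 9.01 and 8.15 in control and 8.22 and 8.26 with SAHA. Control replicate 1 alone stood high, and the other 3 arrays lay within 0.11 of each other. The log2 change was -0.34 ± 0.28 (SE, limma, adjusted p = 0.563; 95% interval -1.01 to 0.33), and without control replicate 1 it was 0.09. The control range of 0.86 was larger than that of 98.0% of all genes. A second probe set read 4.24 to 4.32 on all arrays, near the bottom of the scale, and gave -0.01.

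Granule proteins and other genes known as C/EBP targets were counted beside these factors, and 5 of 14 measured fell and 1 rose, with a median of -0.59 (limma, adjusted p under 0.05), against 0.709% of all genes lower and 1.52% higher. Ngp, a neutrophil granule protein, went from 8.20 and 8.05 in control to 6.28 and 6.22 with SAHA (log2 change -1.88 ± 0.15, SE, adjusted p = 0.0108). Ltf, lactoferrin, went from 7.11 and 7.50 to 5.59 and 5.90 (-1.56 ± 0.20, adjusted p = 0.0238). S100a8 (-0.82, adjusted p = 0.0400), S100a9 (-1.51, adjusted p = 0.0148) and Camp (-1.13, adjusted p = 0.0405) made up the 5, and over all probe sets S100a8 (0.0531) and Camp (0.0530) missed the threshold. Prtn3, the granule protease proteinase 3, went the other way, from 5.11 and 5.72 to 9.22 and 8.92 (3.65 ± 0.24, adjusted p = 0.00833). With either SAHA array left out, fewer of the lower genes in the list passed, and fewer of all genes passed too. The list median was -0.51 without SAHA replicate 1 and -0.64 without SAHA replicate 2, while Prtn3 was higher in both. The list holds all 11 measured neutrophil markers among its 14 genes. The summed linear level of these 11 (of 12 named) was 3735 to 3828 in control and 2376 to 2438 with SAHA. The brightest genes weigh most in such a sum. In control these were S100a8 and S100a9, with mean log2 values of 10.71 and 9.52. With SAHA they were S100a8 and Prtn3, at 9.88 and 9.07. The part of neutrophil content in these values was not tested.

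Set against each other, the 5 dendritic factors had a median log2 change of 0.14 and the 3 measured C/EBP factors one of 0.01, beside -0.05 over all genes. Of the dendritic factors 4 of 5 lay above 0, and of the C/EBP factors 2 of 3, or 3 of 5 and 1 of 3 with quantile normalization. The order of the medians was not stable, at 0.05 for the dendritic and 0.16 for the C/EBP factors without control replicate 1, and at 0.17 and 0.18 without SAHA replicate 2. The mean log2 value of the dendritic factors was 9.51 and 9.77 in control and 9.82 and 10.14 with SAHA, a difference of 0.34, and both SAHA arrays were above both control arrays. For the C/EBP factors it was 10.62 and 10.02 in control and 10.34 and 10.11 with SAHA, a difference of -0.09, with overlap. The dendritic minus the C/EBP mean was -1.10 and -0.25 in control and -0.53 and 0.04 with SAHA, and this range overlapped too. Without Tcf4 and Bcl6 the dendritic mean differed by 0.05. No p is given for these means, since the genes were chosen with earlier results known.

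**Figure D3:**
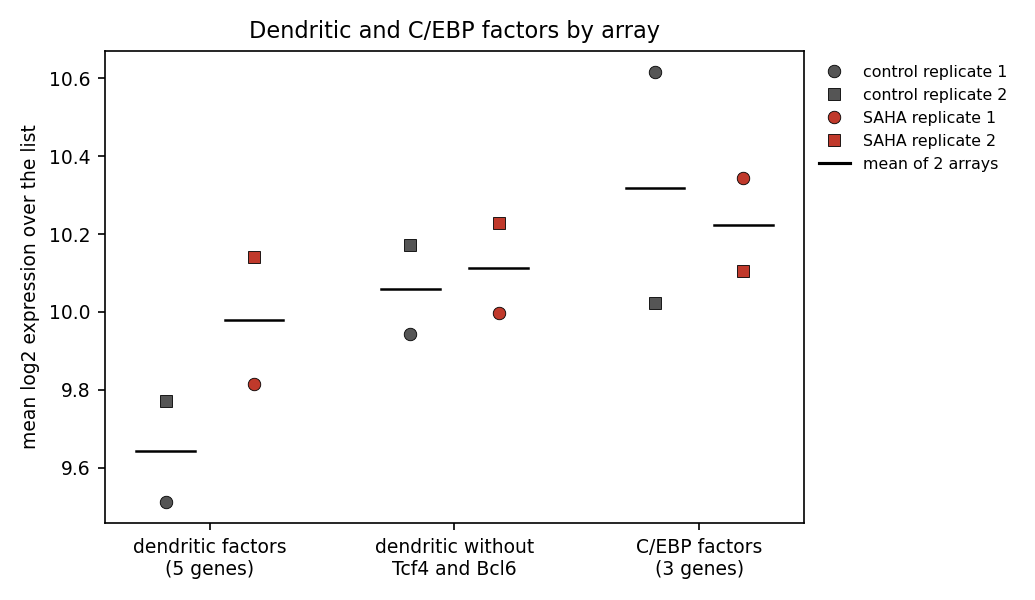
Mean log2 expression (vertical axis, not starting at 0) of the 5 dendritic factors, of the same list without Tcf4 and Bcl6, and of the 3 measured C/EBP factors on each array, with circles for replicate 1, squares for replicate 2 and lines at the mean of 2 arrays. Only the first list has both SAHA arrays (9.82 and 10.14) above both control arrays (9.51 and 9.77), and control replicate 1 stands highest for the C/EBP factors at 10.62.

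Replicate number moved with several members. Bcl6, Nfil3 and Tcf4 were higher in replicate 2 than in replicate 1 in both groups, and Spi1, Cebpa and Cebpb were lower. Between same-numbered arrays Tcf4 differed by 0.94 in replicate 1 and 0.89 in replicate 2, and Bcl6 by 0.41 and 0.79. For Nfil3 the differences were -0.30 and 0.17, and for Cebpa -0.16 and 0.19, so their signs differed between the replicates.

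Other genes of the dendritic network were counted over a list that does not hold the members. It holds factors and the receptor genes Flt3, Kit, Csf2ra and Csf2rb. Csf2ra is also in the PU.1 target list, and Spib, Spic and Etv6 are also among the ETS-family genes below. Of 24 measured genes 1 rose and none fell (limma, adjusted p under 0.05), against 1.52% and 0.709% of all genes, with a median of 0.04. At an unadjusted p under 0.05 there were 8 of 24, of which 6 were higher, against 18.1% of all genes. The 1 was Irf4, which conventional type 2 dendritic cells and their GM-CSF-grown counterparts need, at 9.73 and 9.55 in control and 10.48 and 10.42 with SAHA (log2 change 0.81 ± 0.14, SE, adjusted p = 0.0431). Its second probe set gave 0.26. The call was lost over all probe sets (adjusted p = 0.0592) and without control replicate 2 (0.105), SAHA replicate 1 (0.279) or SAHA replicate 2 (0.154). Of 7 type 2 markers, Irf4 among them, 2 rose, the other being the lectin gene Clec10a at 1.87 (adjusted p = 0.0140), which missed the threshold without SAHA replicate 1 (0.0694) or SAHA replicate 2 (0.0539). At an unadjusted p under 0.05 there were 5 of 7 type 2 markers, 4 of them higher with SAHA. The other was Sirpa, an inhibitory receptor gene, at 12.52 and 12.16 in control and 11.92 and 11.90 with SAHA (-0.43, adjusted p = 0.20), and the lectin gene Cd209a was also lower without overlap (-0.11, adjusted p = 0.668). Of 7 type 1 markers 0 passed in limma and 0 had an unadjusted p under 0.05. That the type 1 and type 2 lists differ was not tested. Other granulocyte-monocyte factors gave 0 of 23 in either direction in limma, with 7 at an unadjusted p under 0.05 and a median of -0.05. In that list Zfpm1, a GATA cofactor, had 0.94 ± 0.26 (adjusted p = 0.140) and Maf, a macrophage factor, -0.93 ± 0.55 (adjusted p = 0.432). The second probe set of Zfpm1 gave 0.49, and the further probe sets of Maf lay between -0.59 and -0.0055. Among 11 ETS-family genes 0 passed in limma, with 1 at an unadjusted p under 0.05 and a median of -0.13. Spic, a PU.1 relative of red pulp macrophages, had -0.64 ± 0.34 (adjusted p = 0.383), and Etv6 0.42 ± 0.16 (adjusted p = 0.233). The second probe set of Spic gave -0.48, and that of Etv6 went the other way, with -0.16.

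**Figure D4:**
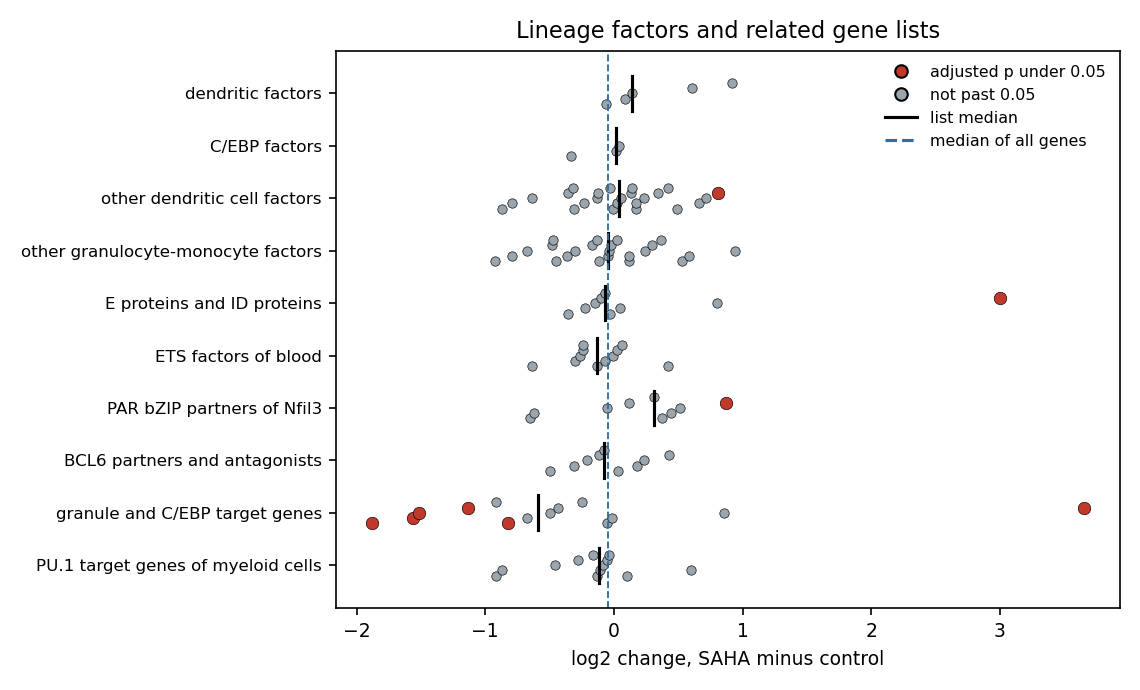
Log2 change (SAHA minus control, horizontal axis) of each measured gene of the dendritic and C/EBP factors and of 8 related lists, with red points past the adjusted threshold of 0.05, black lines at list medians and a dashed line at the median of all genes (-0.05). Points are spread vertically for legibility alone. The granule and C/EBP target list holds 6 red points, and the lists of the members hold none.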

How the data were processed

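Expression was measured on 4 Affymetrix arrays, 2 control and 2 SAHA, grouped and numbered from the sample titles. The authors deposited log2 values per probe set. The scale was read from the values, and the submitters' processing notes name R 2.7. The step that summarised and normalized the probes was not given in the sources used here. Annotation of the platform pairs 34958 of 45101 probe sets with 1 symbol, 932 with several and 9211 with none. Symbols were updated through Entrez identifiers for 34754 probe sets.

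SAHA and control were compared over 18194 genes with limma 3.58.1 in R 4.3.3 (lmFit, eBayes with an intensity trend, two-sided, no covariate, Benjamini-Hochberg adjusted p under 0.05), and over all 34958 probe sets for further probe sets. An SE is limma's moderated one, and a fold undoes the log2. The fit was tested on simulated data. With 2 arrays per group an exact permutation test of 1 gene cannot go below 0.333. The members, gene lists and tests were chosen with earlier results of these data known. In each related list the 2 genes past the threshold with the largest change in each direction are named, or else the 2 with the largest change above the median level, and markers where set beside a result. Bst2, Flt3, Ccr7, Cd86, Sirpa, Cd209a, S100a8, S100a9 and Camp were named after their values were seen. Other alternatives were the spread model, normalization, low values, probe sets, the replicate term and leaving out arrays. RefSeq gene coordinates were not used for the probe sets, as no build is named.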

Additional observations from a re-analysis of the deposited data

How the results depend on the processing

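Over 16 alternatives the change of Tcf4 lay between 0.73 and 1.10 and that of Bcl6 between 0.30 and 0.91, and both passed the threshold under 1, the replicate block (adjusted p = 0.000191 and 0.00258). The labels do not say that equal numbers mark shared cultures. With the replicate block 2 members passed, against 0 of 9 without it, and 3616 genes against 405. Same-numbered arrays deviated together (r = 0.57 over 18194 genes), and with 2 pairs this is a hint from the data only. No member passed in any of the other alternatives. Of the 27 related genes run under the alternatives, 13 that had not passed did so with the block. These genes were run by a choice made after seeing the data. All 10 of them past the threshold lost it with the floor and in the ordinary linear model. Their log2 changes were the same there as in the main fit, and no gene of any kind passed in either setting.

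Genes past the threshold over all genes numbered 0 with a floor at the 20th percentile (3034 at an unadjusted p under 0.05), 0 in an ordinary linear model (2210) and 8 at an adjusted p under 0.01. They numbered 226 where only the brighter genes were kept, and 31 to 529 with 1 array left out, of which 31 without SAHA replicate 1 and 90 without SAHA replicate 2. The 226 were counted among genes above the median level alone, so fewer genes were tested there than in the other settings. The median of the dendritic factors was 0.36 over all their probe sets, 0.34 as a mean, and 0.053 to 0.36 with 1 array left out. The median of the C/EBP factors was -0.33 to 0.18 with 1 array left out.

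Signs turned for members near 0. Quantile normalization gave -0.0093 for Zbtb46 and -0.025 for Cebpa, and the mean of all probe sets -0.014 for Cebpb. With 1 array left out the change ran from -0.49 to 0.36 for Nfil3, -0.33 to 0.35 for Cebpa, -0.18 to 0.25 for Cebpb and -0.77 to 0.091 for Cebpd. Among related genes it ran from -0.22 to 0.079 for Tcf3 and -0.38 to 0.18 for Id4. The cause was not tested. Precision is limited by 2 arrays per group.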
